A study of Mus musculus with 16 samples.

Results

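The mouse metallothionein genes *Mt1*, *Mt2*, *Mt3* and *Mt4* were followed in the skin of male and female mice with and without ultraviolet B (UVB) irradiation. The members were chosen by gene symbol, and all 4 were found among the 55359 genes of the count files. The mice were wild-type C57Bl/6 of 8 weeks (C57Bl/6N in the study's methods), with dorsal skin in telogen, the resting stage of the hair cycle, by their labels. Irradiated mice received UVB 3 times, once every other day, and RNA was taken from whole dorsal skin 6 h after the third exposure, on day 5. Unirradiated (no-UVB) mice of each sex were the controls, and each of the 4 groups held 4 mice, 1 library a mouse. Irradiated mice were shaved; whether the no-UVB mice were handled in the same way is not given in the sources used here. The comparison addresses how the skin of each sex responds to UVB.

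Metallothioneins are small cysteine-rich proteins that bind zinc and copper through their thiol groups, buffer free zinc and scavenge reactive oxygen species. *Mt1* and *Mt2* are expressed in most tissues and are induced by zinc and other metals through the zinc-sensing transcription factor MTF-1, by glucocorticoids through the glucocorticoid receptor, by oxidants, and by IL-6 signalling through STAT3. *Mt3* is best known from brain, where it was described as a growth inhibitory factor, and *Mt4* from differentiating cells of stratified squamous epithelia such as the epidermis.

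All 4 genes lie on the plus strand of chromosome 8 (GRCm39, GENCODE M39) within 43.1 kb, in the order *Mt4* (ENSMUSG00000031757, 94863825-94865661), *Mt3* (ENSMUSG00000031760, 94879220-94881088), *Mt2* (ENSMUSG00000031762, 94898819-94900207) and *Mt1* (ENSMUSG00000031765, 94905710-94906955). *Mt2* and *Mt1* are the closest neighbours, with 5.50 kb between them. The coding sequences of the transcripts Mt1-201, Mt2-201, Mt3-201 and Mt4-201 are shown because the cysteine codons are the metal-binding part of each protein. Capitals mark the in-frame cysteine codons, TGC or TGT.
Mt1: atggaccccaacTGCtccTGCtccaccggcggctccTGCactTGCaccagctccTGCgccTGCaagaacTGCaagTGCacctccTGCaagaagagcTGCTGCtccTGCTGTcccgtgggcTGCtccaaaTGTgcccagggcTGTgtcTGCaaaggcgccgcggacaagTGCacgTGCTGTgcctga
Mt2: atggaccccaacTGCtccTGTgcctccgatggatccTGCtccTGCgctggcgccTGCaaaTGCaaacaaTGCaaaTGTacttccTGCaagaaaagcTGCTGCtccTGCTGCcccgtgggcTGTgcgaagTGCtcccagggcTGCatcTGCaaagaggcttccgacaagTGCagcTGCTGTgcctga
Mt3: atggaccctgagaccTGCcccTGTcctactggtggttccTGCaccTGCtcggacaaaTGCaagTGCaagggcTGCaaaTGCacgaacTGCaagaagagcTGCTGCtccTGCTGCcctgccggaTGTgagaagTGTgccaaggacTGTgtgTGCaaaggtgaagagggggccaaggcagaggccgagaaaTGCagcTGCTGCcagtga
Mt4: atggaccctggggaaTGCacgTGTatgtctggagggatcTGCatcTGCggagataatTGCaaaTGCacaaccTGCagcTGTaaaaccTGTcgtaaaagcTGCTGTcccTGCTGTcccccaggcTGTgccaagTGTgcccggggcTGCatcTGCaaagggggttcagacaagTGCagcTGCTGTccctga
Each sequence holds 20 cysteine codons, in 61 codons before the stop for *Mt1* and *Mt2*, 68 for *Mt3* and 62 for *Mt4*. *Mt1* and *Mt2* were the most alike, with 79.6% of aligned bases identical, against 63.3% to 73.2% for the other 5 pairs. The longest run of bases shared by 2 of the 4 transcripts was 27, between *Mt1* and *Mt3*.

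Metal response elements, the sites MTF-1 binds, have the core TGCACNC or TGCGCNC, and both forms were searched on both strands in the 300 bases before each start codon. *Mt1* and *Mt2* each held 5 cores, *Mt3* held 3 and *Mt4* held 1. Of 21669 such windows of protein-coding genes, 25.4% held at least 1 core, 1.84% at least 3 and 0.143% at least 5. These windows end at the start codon and so include bases that some transcripts carry. In the RefSeq promoter windows (GRCm38.p6, 250 bases before to 50 after the RefSeq start of each gene), the counts were 3 for *Mt1*, 4 for *Mt2*, 1 for *Mt3* and 1 for *Mt4*, where 25.7% of 32851 windows held at least 1 core, 1.97% at least 3 and 0.517% at least 4. The order of *Mt1* and *Mt2* above *Mt4* was the same in both windows, and *Mt3* was above *Mt4* only in the start codon windows. In the part of the RefSeq windows before the first base of the Ensembl canonical transcript, the order was not kept. The counts there were 1 for *Mt1*, 2 for *Mt2*, 0 for *Mt3* and 1 for *Mt4*. The sites of *Mt1*, *Mt2* and *Mt4* are shown to set the genes with the most and the fewest cores side by side. They are from GRCm39, plus strand, with the core in capitals and its first base counted back from the start codon.
Mt1, chr8:94905684-94905710, core from -245: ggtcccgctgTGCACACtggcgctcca
Mt1, chr8:94905709-94905735, core from -220: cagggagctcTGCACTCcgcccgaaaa
Mt1, chr8:94905727-94905753, core from -202: gcccgaaaagTGCGCTCggctctgcca
Mt1, chr8:94905791-94905817, core from -138: accgcctgctGGGTGCAaaccctttgc
Mt1, chr8:94905805-94905831, core from -124: gcaaacccttTGCGCCCggactcgtcc
Mt2, chr8:94899186-94899212, core from -280: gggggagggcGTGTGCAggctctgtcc
Mt2, chr8:94899240-94899266, core from -226: aattcgggtcGTGCGCAggcccagggg
Mt2, chr8:94899294-94899320, core from -172: gaaaaagggcGTGTGCAggcggcgggg
Mt2, chr8:94899313-94899339, core from -153: cggcgggggcGCGTGCAtggtgccttc
Mt2, chr8:94899347-94899373, core from -119: gcggagctttTGCGCTCgacccaatac
Mt4, chr8:94863731-94863757, core from -129: tcactgggccGTGTGCAgggcgtctgg
In the *Mt2* sites most cores read on the minus strand, and in the *Mt1* sites most read on the plus strand. These matches are descriptions of letters in a window and not of binding.

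Each library held 16495776 to 33404831 reads assigned to genes. X- and Y-linked genes matched the labelled sex in all 16 mice. No-UVB males 3 and 4 stood apart in markers of growing hair: *Krt71*, of the inner root sheath of growing hair, was at 21.1 and 39.9 CPM (reads per 1000000 reads on genes, after scaling between libraries) in them and at 0 to 1.75 CPM in the other 14 mice. The summed level of 5 such markers (*Krt31*, *Krt34*, *Krt71*, *Krt86* and *Padi3*) was 25.1 and 44.5 CPM in these mice, most of it *Krt71*, and 0.300 to 2.06 CPM in the rest, although all labels give telogen. Fitted differences that use the no-UVB males are therefore given with and without these mice for the metallothioneins and for several of the other genes. In whole skin, fewer cells of a type and less RNA per cell cannot be told apart.

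*Mt1* and *Mt2* were the abundant members in CPM. *Mt1* ranged from 42.4 to 191 CPM over the 16 mice, *Mt2* from 33.5 to 171 CPM, *Mt4* from 9.53 to 27.3 CPM and *Mt3* from 0.264 to 1.47 CPM. Per kilobase of these transcripts, levels were 77.2 to 347 CPM per kb for *Mt1*, 49.2 to 250 for *Mt2*, 23.8 to 68.3 for *Mt4* and 0.305 to 1.70 for *Mt3*. On this scale *Mt1* and *Mt2* overlapped, and *Mt2* and *Mt4* overlapped at the low end of *Mt2*, while *Mt3* lay below the other 3 in every mouse. The order of *Mt1* and *Mt2* depends on the length used: over all annotated exon bases of each gene the ranges were 34.0 to 153 CPM per kb for *Mt1* and 35.3 to 180 for *Mt2*. On that length *Mt4* kept its range of 23.8 to 68.3 CPM per kb. It then overlapped both and lay above both in UVB female 2 and no-UVB female 3. *Mt3* rested on 5 to 32 reads a library, and its values carry a correspondingly wide counting error.

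**Figure D1:**
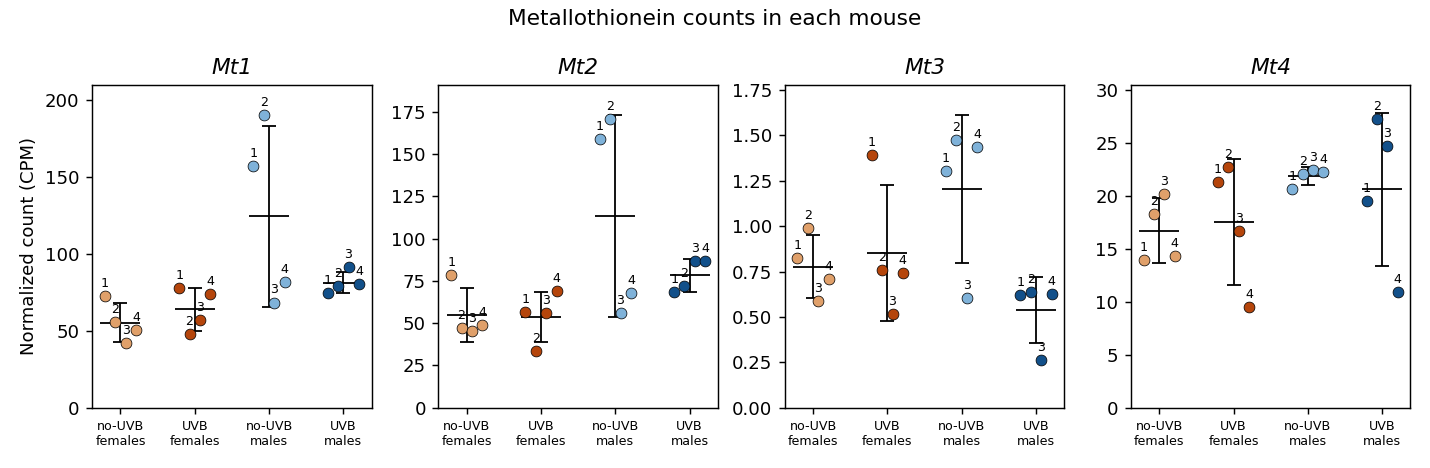
CPM of *Mt1*, *Mt2*, *Mt3* and *Mt4* (y axes from 0) in each of the 16 mice, numbered by replicate and grouped by sex and UVB, with a bar at each group mean and whiskers of 1 SD (n = 4). No-UVB males 1 and 2 lie above all other mice for *Mt1* (157 and 191 CPM) and *Mt2* (159 and 171 CPM), and UVB males lie below 3 of 4 no-UVB males for *Mt3*.

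In males, *Mt1* was at 157, 191, 68.4 and 81.7 CPM in no-UVB mice 1 to 4 and at 74.5, 79.2, 91.3 and 80.7 CPM in UVB mice 1 to 4. No-UVB mice 1 and 2 were the high ones, no-UVB mouse 3 was below every UVB mouse, and the groups overlapped. Group means were 124.4 ± 58.9 CPM without UVB and 81.4 ± 7.12 CPM with UVB (SD, n = 4). *Mt2* was at 159, 171, 56.1 and 68.1 CPM without UVB and at 68.4, 71.7, 86.9 and 86.8 CPM with UVB. The same no-UVB mice were high, the remaining 2 were below all UVB mice, and the means were 113.4 ± 59.7 and 78.5 ± 9.77 CPM (SD, n = 4).

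Male skin showed a fall in *Mt3* after UVB and no call for the other members. A gene passed at an adjusted p (Benjamini-Hochberg over all genes tested) under 0.1 in edgeR's quasi-likelihood test, and 1 of the 4 members passed, lower after UVB, where 30.5% of all 16535 genes tested in males passed in that direction and 59.6% in either. The share among the members was thus no higher than the background. *Mt3* was at 1.30, 1.47, 0.607 and 1.43 CPM in no-UVB males and at 0.624, 0.638, 0.264 and 0.626 CPM in UVB males. No-UVB mouse 3 lay among the UVB mice and the other 3 no-UVB mice lay above them. The log2 difference, UVB minus no UVB, was -1.11 (SE 0.344, adjusted p = 0.0184). The fitted log2 difference of *Mt1* was -0.59 with a 95% interval of -1.37 to 0.19 (adjusted p = 0.175), that of *Mt2* was -0.51 with an interval of -1.42 to 0.39 (adjusted p = 0.300). *Mt4* was at 20.6, 22.1, 22.5 and 22.3 CPM without UVB and 19.6, 27.3, 24.7 and 10.9 CPM with UVB. The UVB males reached above and below all no-UVB males, and the difference was -0.07 (interval -0.61 to 0.47, adjusted p = 0.832).

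The male result turned on which no-UVB mice were in the fit. Pairs of mice were left out by a choice made after the data, the markers of growing hair among them, had been seen. With mice 3 and 4 left out, *Mt1* was lower after UVB by a log2 difference of -1.05 (adjusted p = 2.28e-05), *Mt2* by -1.03 (adjusted p = 4.58e-05) and *Mt3* by -1.31 (adjusted p = 0.0112). With mice 1 and 2 left out in their place, the difference was 0.15 for *Mt1* (adjusted p = 0.264), 0.37 for *Mt2* (adjusted p = 0.0342, now higher after UVB) and -0.84 for *Mt3* (adjusted p = 0.163). Leaving out single mice also moved calls: *Mt1* passed without no-UVB mouse 3 (-0.78, adjusted p = 0.0474) or mouse 4 (-0.75, adjusted p = 0.0928), and *Mt2* passed without mouse 3 (-0.72, adjusted p = 0.0991). The *Mt3* call held without any single mouse, with differences of -1.32 to -0.90. The sign for *Mt1* and *Mt2* in males therefore differs between the pairs of control mice. Mice 1 and 2 were also the highest no-UVB males in both genes, and mice 3 and 4 the lowest. Each removal thus moves these genes in a direction known in advance. Its adjusted p, here and in the comparisons below, is a description. For *Mt4* the difference was -0.016 without males 3 and 4 (adjusted p = 0.9747) and -0.096 without males 1 and 2 (adjusted p = 0.851). The part that the signal of growing hair has in these values was not tested.

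Markers of several cell types also moved with UVB in males. The 5 fibroblast markers summed to 59360 to 65270 CPM without UVB and 19070 to 27500 CPM with UVB, with 4 of 5 lower after UVB. All 5 skeletal muscle markers were lower (14520 to 19300 CPM summed without UVB and 8699 to 11140 CPM with UVB), as were all 5 Schwann cell and nerve markers (329 to 469 and 228 to 311 CPM), all 5 T cell markers (37.0 to 48.8 and 20.01 to 28.4 CPM), 4 of 6 macrophage markers and 3 of 5 adipocyte markers. Activated keratinocyte markers were higher in 5 of 5 (656 to 836 and 3752 to 6821 CPM), suprabasal keratinocyte markers in 4 of 5 (5675 to 8595 and 16690 to 22690 CPM) and neutrophil markers in 4 of the 5 tested. These groups of mice did not overlap in the summed levels printed here, where 47.1% of all genes did not overlap. Over all genes 30.5% passed as lower and 29% as higher. Of 5 endothelial markers 0 passed, and of 5 melanocyte markers 3 were higher and 1 lower. Of 5 basal keratinocyte markers 2 were higher and 1 lower, and of 5 mast cell markers 1 was higher and 1 lower. The part of these cell types in the male results of the metallothioneins and of the other genes below was not tested.

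Females showed no call for any member. *Mt1* was at 72.7, 56.0, 42.4 and 50.3 CPM without UVB and at 77.7, 48.2, 56.9 and 74.0 CPM with UVB (means 55.3 ± 12.8 and 64.2 ± 13.99 CPM, SD, n = 4). The groups overlapped, with 2 UVB mice above all no-UVB mice. *Mt2* was at 78.6, 47.4, 45.1 and 48.8 CPM without UVB and at 56.5, 33.5, 56.1 and 68.9 CPM with UVB (means 55.0 ± 15.8 and 53.8 ± 14.7 CPM). No-UVB female 1 was the highest of the 8 females for *Mt2*, and UVB female 2 was the lowest. *Mt3* was at 0.589 to 0.991 CPM without UVB and 0.514 to 1.39 CPM with UVB, and *Mt4* at 13.99 to 20.2 and 9.53 to 22.7 CPM. In edgeR 0 of the 4 members passed, where 23.4% of 16883 genes did, 0 had an unadjusted p under 0.05, and DESeq2 called 0. The log2 differences were 0.22 for *Mt1* (interval -0.20 to 0.64, adjusted p = 0.464), -0.03 for *Mt2* (-0.54 to 0.49, adjusted p = 0.953), 0.12 for *Mt3* (-0.59 to 0.83, adjusted p = 0.835) and 0.08 for *Mt4* (-0.47 to 0.62, adjusted p = 0.862).

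**Figure D2:**
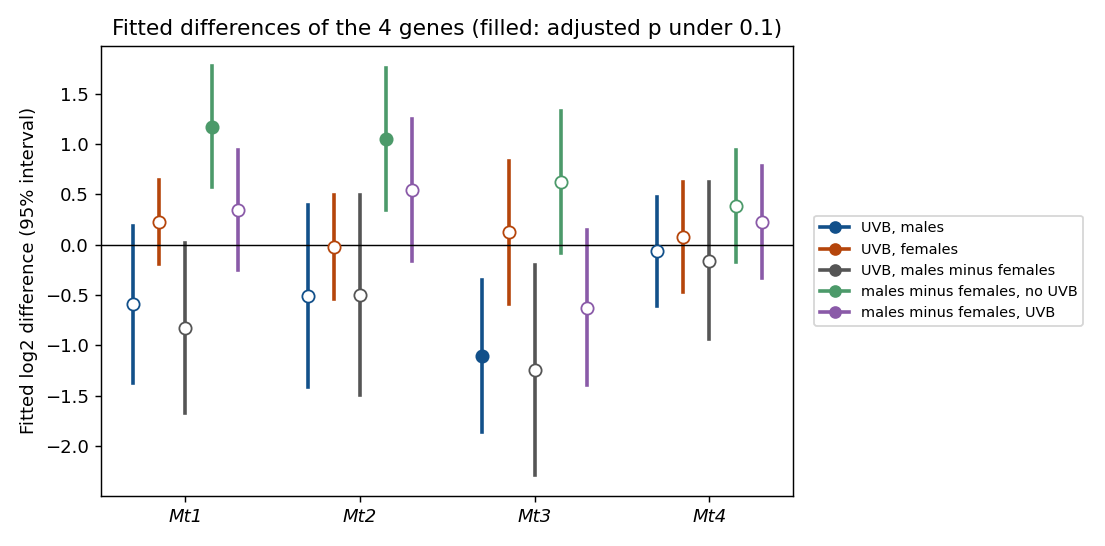
Fitted log2 differences of the 4 members with 95% intervals in each comparison, filled where the adjusted p is under 0.1. *Mt3* in males (-1.11) and *Mt1* (1.17) and *Mt2* (1.05) between the sexes without UVB are filled, and the intervals of the other points include 0 except that of *Mt3* in the difference of responses.

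The UVB responses of the sexes were compared in a fit of all 16 libraries. The male minus female difference of the log2 responses was -0.83 for *Mt1* (95% interval -1.67 to 0.01, adjusted p = 0.248), -0.50 for *Mt2* (-1.49 to 0.49, adjusted p = 0.577), -1.25 for *Mt3* (-2.29 to -0.20, adjusted p = 0.163) and -0.16 for *Mt4* (-0.94 to 0.62, adjusted p = 0.842). In edgeR 0 of the 4 passed, against 7% of 17406 genes, 1 (*Mt3*) had an unadjusted p under 0.05, and DESeq2 called 0. *Mt1* passed when no-UVB male 3 was left out (-1.03, adjusted p = 0.0955), and so did *Mt3* (-1.48, adjusted p = 0.0746). With no-UVB males 3 and 4 left out the differences were -1.31 for *Mt1* (adjusted p = 0.0165), -1.04 for *Mt2* (adjusted p = 0.0826) and -1.47 for *Mt3* (adjusted p = 0.0972). With males 1 and 2 left out they were -0.10 for *Mt1* (adjusted p = 0.908), 0.37 for *Mt2* (adjusted p = 0.682) and -0.99 for *Mt3* (adjusted p = 0.478). For *Mt4* they were -0.13 and -0.19 in these removals (adjusted p = 0.897 and 0.890).

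Without UVB, *Mt1* and *Mt2* were higher in male than in female skin. The log2 difference, males minus females, was 1.17 for *Mt1* (SE 0.280, adjusted p = 0.0205, 2.25-fold) and 1.05 for *Mt2* (SE 0.329, adjusted p = 0.0710, 2.07-fold), so that 2 of the 4 members passed as higher, where 7.21% of 17406 genes did and 11.8% passed in either direction. The sexes overlapped for both genes: no-UVB males 3 and 4 were within or just above the female range. The call of *Mt1* held without any single mouse (0.89 to 1.37), while that of *Mt2* was lost without no-UVB male 1 or 2 or without no-UVB female 2, 3 or 4 (0.78 to 1.27 over all single removals, adjusted p up to 0.220). With males 1 and 2 left out the differences were 0.44 for *Mt1* (adjusted p = 0.308) and 0.18 for *Mt2* (adjusted p = 0.798), and with males 3 and 4 left out 1.65 (adjusted p = 0.000218) and 1.59 (adjusted p = 0.00178). *Mt4* was the reverse case: the 4 males (20.6 to 22.5 CPM) lay above the 4 females (13.99 to 20.2 CPM), a lack of overlap shared by 13% of genes, yet the difference of 0.38 did not pass (interval -0.17 to 0.94, adjusted p = 0.426). It was 0.35 without males 3 and 4 (adjusted p = 0.619) and 0.42 without males 1 and 2 (adjusted p = 0.607). The difference of *Mt3* was 0.62 (interval -0.08 to 1.32, adjusted p = 0.290), 0.84 without males 3 and 4 (adjusted p = 0.208) and 0.36 without males 1 and 2 (adjusted p = 0.746).

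Other cell markers moved with this comparison. The summed level of 5 fibroblast markers was 59360 to 65270 CPM in no-UVB males and 13810 to 14040 CPM in no-UVB females, with 3 of the 5 passing as higher in males. The 5 skeletal muscle markers summed to 14520 to 19300 CPM in no-UVB males and 9422 to 13800 CPM in no-UVB females, again with 3 of 5 passing as higher in males. No-UVB males 1 and 2, high in *Mt1* and *Mt2*, were at 65270 and 64560 CPM in the fibroblast sum, and males 3 and 4 at 61370 and 59360 CPM. In the other direction, 3 of 5 mast cell markers (*Cpa3*, *Kit* and *Mcpt4*), 2 of 5 T cell markers (*Cd3e* and *Cd3g*) and 2 of 5 melanocyte markers (*Dct* and *Pmel*, with *Mlana* higher) were lower in no-UVB males. The mast cell markers summed to 188 to 240.0 CPM in no-UVB males and 244.5 to 372 CPM in no-UVB females. Over all genes 7.21% passed as higher and 4.58% as lower in no-UVB males than in no-UVB females. The part of these cell types in the sex difference was not tested.

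With UVB, 0 of the 4 members differed between the sexes in edgeR, where 25.2% of genes did, 0 had an unadjusted p under 0.05 and DESeq2 called 0. The log2 differences, males minus females, were 0.34 for *Mt1* (95% interval -0.25 to 0.94, adjusted p = 0.423), 0.55 for *Mt2* (-0.16 to 1.25, adjusted p = 0.274), -0.62 for *Mt3* (-1.40 to 0.15, adjusted p = 0.254) and 0.23 for *Mt4* (-0.33 to 0.78, adjusted p = 0.587). For *Mt1* and for *Mt2*, 3 of the 4 UVB males were above all UVB females. *Mt2* passed in this comparison when either pair of no-UVB males was left out, as given below.

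Most *Mt2* reads were counted only where strand was kept. The antisense gene *Gm45774* (94892504-94900040, minus strand) overlaps 82.4% of the *Mt2* exon bases, so that reads in the overlap are ambiguous when strand is ignored. The deposited strand-specific counts gave 930 to 3709 *Mt2* reads a library, and the counts without strand gave 105 to 475, or 10.3% to 15.97% of them. *Gm45774* itself had 0 to 5 reads on its own strand. For *Mt1* the counts without strand were 100% to 100.4% of the strand-specific ones.

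*Mt1* and *Mt2* moved together from mouse to mouse. Over the 16 mice their log2 CPM correlated with Pearson's r = 0.95 (permutation p = 1e-05, the smallest that 100000 permutations can give, adjusted p = 6e-05 over the 6 pairs of members) and Spearman's rho = 0.90. Without the 2 mice farthest from the *Mt1* median, no-UVB males 1 and 2, r was 0.87, and after each group's mean was subtracted it was 0.95. For *Mt1* and *Mt3* r was 0.43 (permutation p = 0.0996, adjusted p = 0.299), and the remaining 4 pairs had adjusted p of 0.53 or more. *Mt1* made up 48.0% to 59.0% of the summed *Mt1* and *Mt2* reads of a mouse. In males this share was 53.0% ± 2.38 without UVB and 51.0% ± 1.96 with UVB (SD, n = 4, exact two-sided permutation p = 0.229, adjusted p = 0.229). In females it was 50.3% ± 2.80 and 54.8% ± 4.31 (exact p = 0.2, adjusted p = 0.229). With 4 against 4 mice the smallest possible exact p is 0.0286.

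**Figure D3:**
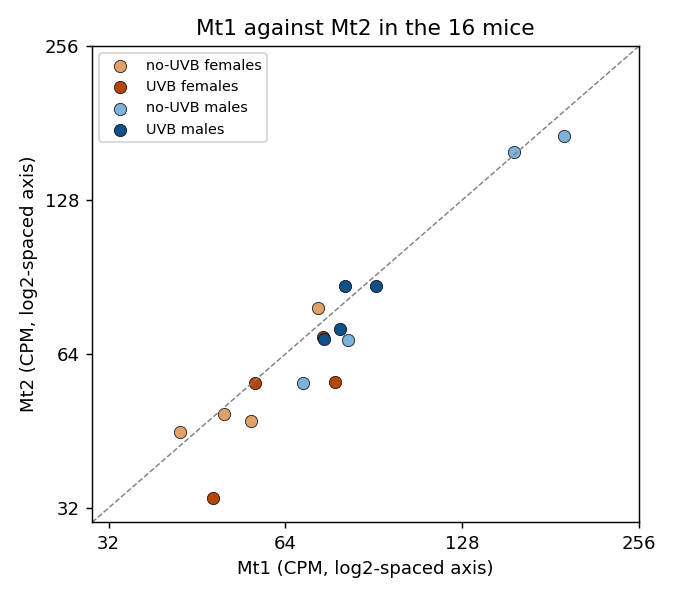
*Mt1* against *Mt2* in CPM (log2-spaced axes), 1 point a mouse, coloured by group, with a dashed line where both are equal. The 16 mice follow the line (r = 0.95), with no-UVB males 1 and 2 at its upper end.

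Among 15117 genes with a mean of at least 1 CPM, the gene whose log2 CPM over the 16 mice was most like *Mt1* was *Mt2*, followed by *Smpd2* (r = 0.94) and *Fam107a* (r = 0.91). After group means were subtracted, *Sesn1* (r = 0.95), *Mt2* (r = 0.95) and *Rhob* (r = 0.95) led. *Mt2* was most like *Mt1*, *Sgk1* (r = 0.94), which encodes the serum and glucocorticoid regulated kinase, and *Smpd2* (r = 0.90), and after group means were subtracted most like *Mt1*, *Arrdc3* (r = 0.94) and *Depp1* (r = 0.94). *Mt4* was most like *Lypd6* (r = 0.83), *Arhgap24* (r = 0.79) and *2310009B15Rik* (r = 0.79), and after group means were subtracted most like *Zfand6* (r = 0.90), *Wfdc21* (r = 0.88) and *Camk2b* (r = 0.88). *Mt3* was most like *Cfap100* (r = 0.90), *Actr8* (r = 0.89) and *Med28* (r = 0.87), and after group means were subtracted most like *Eci1* (r = 0.89), *Tox* (r = 0.87) and *Acaa1a* (r = 0.87), at the counting error of 5 to 32 reads. Only for *Mt2* did the same gene, *Mt1*, lead both rankings. These are the highest of all those computed, all points share the same libraries, and they are given as descriptions.

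No-UVB males 1 and 2, high in *Mt1* and *Mt2*, were the 2 highest of the 16 mice in 9 of the 13 tested genes of a glucocorticoid list, in 5 of 17 of an IL-6 and STAT3 list, in 1 of 20 zinc and 1 of 12 copper handling genes and in 0 of 14 NRF2 genes, where this was so for 5.38% of 17406 genes. This count was made after the values were seen, and which of these signals bears on *Mt1* and *Mt2* was not tested. The 5 glucocorticoid genes that follow were named for their male UVB difference, to which these mice contribute, so their levels are a description. *Dusp1*, a phosphatase that switches off MAP kinases, was at 262, 353, 94.5 and 95.4 CPM in no-UVB males 1 to 4, and at 35.1 to 52.4 CPM in UVB males, 50.3 to 81.8 CPM in no-UVB females and 43.2 to 77.1 CPM in UVB females. *Tsc22d3*, the glucocorticoid-induced leucine zipper, was at 695, 749, 251 and 343 CPM in no-UVB males and at 108 to 226 CPM in UVB males. *Errfi1*, an inhibitor of the EGF receptor, was at 427, 521, 91.7 and 118 CPM in no-UVB males and at 67.3 to 92.2 CPM in UVB males. Males 3 and 4 lay within the range of the females in *Errfi1* and above the UVB males in *Dusp1* and *Tsc22d3*. *Ddit4*, an inhibitor of mTORC1, was at 225, 244, 71.2 and 87.4 CPM in no-UVB males, and *Nfkbia*, the inhibitor of NF-kB, at 251, 260, 111 and 114 CPM. *Socs3*, the feedback inhibitor of STAT3 signalling, was split in the same way, at 53.1, 65.0, 26.6 and 33.3 CPM in no-UVB males and at 20.1 to 37.1 CPM in the other 12 mice.

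Of 14 listed glucocorticoid genes 13 were tested. In males 8 were lower after UVB and 1 was higher, with a median log2 difference of -0.57 against -0.02 over all genes, beside backgrounds of 30.5% lower and 29% higher. The count of lower genes was 7 to 9 over removals of a single mouse. The differences were -2.12 for *Dusp1* (adjusted p = 0.0105), -1.79 for *Errfi1* (adjusted p = 0.0450), -1.61 for *Tsc22d3* (adjusted p = 0.0147), -1.52 for *Ddit4* (adjusted p = 0.0218) and -1.11 for *Nfkbia* (adjusted p = 0.0235). *Nr3c1*, the glucocorticoid receptor, was lower by a log2 difference of -0.21 (adjusted p = 0.0215). The call of *Errfi1* was lost without no-UVB male 1 (-1.54, adjusted p = 0.104), no-UVB male 2 (-1.33, adjusted p = 0.113) or UVB male 2 (-1.70, adjusted p = 0.103). With no-UVB males 1 and 2 left out the count of lower genes was also 8, at smaller sizes: -1.03 for *Dusp1* (adjusted p = 0.000771), -0.83 for *Tsc22d3* (adjusted p = 0.0978), -0.53 for *Ddit4* (adjusted p = 0.00474), -0.40 for *Nfkbia* (adjusted p = 0.00741) and -0.31 for *Errfi1* (adjusted p = 0.0933). With no-UVB males 3 and 4 left out the differences were -2.71 for *Dusp1* (adjusted p = 3.41e-05), -2.47 for *Errfi1* (adjusted p = 1.95e-06), -2.10 for *Tsc22d3* (adjusted p = 0.00188), -2.08 for *Ddit4* (adjusted p = 1.20e-06) and -1.56 for *Nfkbia* (adjusted p = 2.05e-06), while *Nr3c1* no longer passed (-0.15, adjusted p = 0.150). These 5 genes thus passed as lower after UVB against either pair of control males. They were named for passing in males, and *Mt1* and *Mt2* were not, so no contrast between them is drawn.

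In females 1 of the 13, *Hsd11b1*, which regenerates active glucocorticoid, was higher after UVB (0.53, adjusted p = 0.0946) and 0 were lower, beside backgrounds of 12.8% and 10.6%. The *Hsd11b1* call was lost in 7 of 8 removals of a single mouse, all but that of UVB female 4 (0.35 to 0.60, adjusted p up to 0.186). The male response was below the female response for 4 of the 13, beside a background of 4.25%: *Dusp1* (-1.98, adjusted p = 0.0542), *Tsc22d3* (-1.62, adjusted p = 0.0942), and, chosen after their values were seen, *Per1* (-0.98, adjusted p = 0.0395) and *Klf9* (-0.68, adjusted p = 0.0789). This count was 1 to 7 over removals of a single mouse, with 1 without no-UVB male 2, UVB male 1 or UVB male 2 and 7 without no-UVB male 3, and the call of *Klf9* was lost in 9 of 16 (adjusted p up to 0.168, without no-UVB male 2). Without UVB 5 of the 13 were higher in males than in females and 1 lower (backgrounds of 7.21% and 4.58%), with *Dusp1* at 1.58 (adjusted p = 0.0166), *Errfi1* at 1.45 (adjusted p = 0.0750), *Tsc22d3* at 1.14 (adjusted p = 0.0698), *Ddit4* at 1.11 (adjusted p = 0.0692) and, outside the naming rule, *Per1* at 0.84 (adjusted p = 0.00612). The count of higher genes was 2 without no-UVB female 2 or 3 or no-UVB male 1 or 2, 3 without no-UVB female 4 and 9 without no-UVB male 3, and DESeq2 called 8. With every gene of at least 1 count it was 2, with *Errfi1*, *Tsc22d3* and *Ddit4* not passing (adjusted p = 0.195, 0.187 and 0.189), and the count of lower male responses was 1, with *Dusp1*, *Tsc22d3* and *Klf9* not passing (adjusted p = 0.139, 0.230 and 0.163). The difference of responses of *Dusp1* passed in 13 of 16 removals of a single mouse and was lost without no-UVB male 2, UVB male 1 or UVB male 2 (-2.21 to -1.56 over all removals, adjusted p up to 0.1198), and that of *Tsc22d3* passed in 6 of 16 (adjusted p up to 0.197, without no-UVB male 2). Between the sexes without UVB, *Errfi1*, *Tsc22d3* and *Ddit4* each passed in 11 of 16 removals, with the highest adjusted p (0.235, 0.205 and 0.219) without no-UVB male 2. With no-UVB males 1 and 2 left out 0 of the 13 had a lower male response and 0 were higher in no-UVB males, and with males 3 and 4 left out 7 and 9 were. Cell markers differed in response too (backgrounds of 4.25% lower and 2.75% higher in males). Lower were 3 of 5 fibroblast, 4 of 5 skeletal muscle and 3 of 5 Schwann cell and nerve markers. Higher were 3 of 5 activated keratinocyte, 1 of 5 basal keratinocyte and 2 of 5 tested neutrophil markers. Their part in the difference of responses was not tested.

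**Figure D4:**
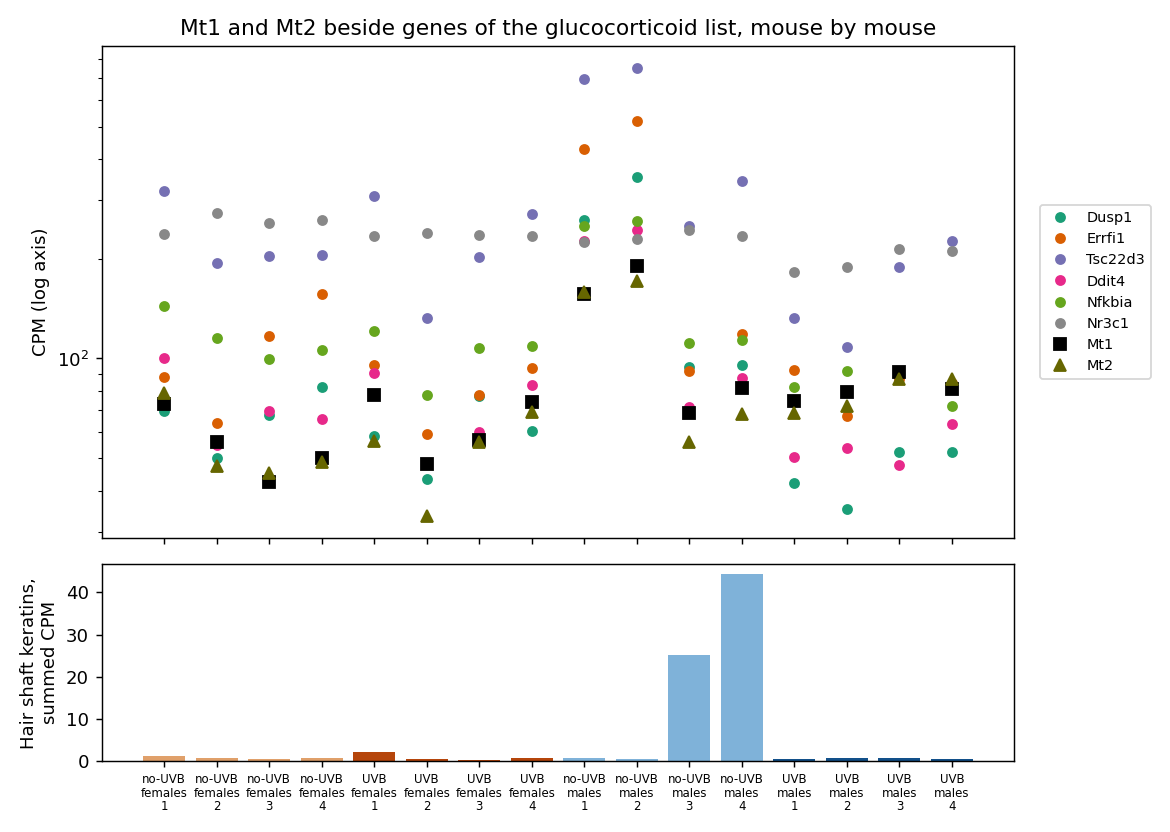
Upper panel, CPM (log axis) of *Mt1*, *Mt2*, *Dusp1*, *Errfi1*, *Tsc22d3*, *Ddit4*, *Nfkbia* and *Nr3c1* in each mouse, and lower panel, summed CPM of the 5 markers of growing hair in the same mice. The axis names them hair shaft keratins, but most of the sum in no-UVB males 3 and 4 is *Krt71*, of the inner root sheath. No-UVB males 1 and 2 are the highest mice for all of these but *Nr3c1* in the upper panel, and no-UVB males 3 and 4 hold the tall bars (25.1 and 44.5 CPM) in the lower.

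Several zinc transporter genes, by contrast, were higher after UVB in both sexes. Of 25 listed genes (*Mtf1* and the zinc exporter family Slc30a and importer family Slc39a) 20 were tested. In males 9 were higher and 4 lower after UVB, against backgrounds of 29% and 30.5%, and in females 5 were higher and 0 lower, against 12.8% and 10.6%. The 4 lower in males were 2 with DESeq2, with DESeq2 size factors in edgeR, with every gene of at least 1 count, with the replicate block and without no-UVB male 2 or 4 or UVB male 1 or 2. With no-UVB males 3 and 4 left out 10 were higher and 5 lower in males, and with males 1 and 2 left out 7 and 2. The list medians were 0.11 in males and 0.02 in females. The importer *Slc39a6* was at 33.3 to 42.2 CPM in no-UVB males and 79.5 to 98.1 CPM in UVB males, and at 38.5 to 44.4 and 59.4 to 69.5 CPM in females. Its log2 difference was 1.27 in males (adjusted p = 1.54e-06) and 0.62 in females (adjusted p = 0.000668), and the response was larger in males by 0.63 (adjusted p = 0.0154, a call held without any single mouse). This difference of responses was 0.76 without no-UVB males 3 and 4 (adjusted p = 0.00633) and 0.51 without males 1 and 2 (adjusted p = 0.0921). In females markers of other cells moved with UVB too: 4 of 5 suprabasal keratinocyte markers (5464 to 7997 CPM summed without UVB and 9284 to 12640 CPM with UVB), 4 of 5 activated keratinocyte markers (532 to 1020.0 and 923 to 1694 CPM), 3 of 5 mast cell markers and 2 of 5 tested neutrophil markers were higher, and 3 of 5 T cell markers were lower. Their part in the female results was not tested. The *Slc39a6* groups did not overlap in either sex, as was so for 47.1% of genes in males and 21.2% in females.

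*Slc39a2*, another importer, was at 3.08 to 5.03 CPM in no-UVB males and 11.7 to 15.5 CPM in UVB males, and at 3.59 to 6.84 and 9.23 to 11.8 CPM in females. It rose by 1.70 in males (log2, adjusted p = 7.23e-06) and by 0.99 in females (adjusted p = 0.00503). *Slc39a8*, an importer of zinc and manganese, rose by 0.97 in males (adjusted p = 3.90e-06) and by 0.88 in females (adjusted p = 0.0225). In the transporters these UVB mice were above the no-UVB mice of their sex, except that UVB female 2 (23.3 CPM) lay below no-UVB female 1 (23.8 CPM) in *Slc39a8*. The exporter *Slc30a1*, itself a target of MTF-1, rose by 0.44 in males (adjusted p = 0.00137) and by 0.26 in females (adjusted p = 0.0124). *Mtf1* rose in males by 0.35 (adjusted p = 0.000505), from 28.4 to 31.4 CPM without UVB to 36.1 to 39.6 CPM with UVB, and was at 28.3 to 33.9 and 31.2 to 33.5 CPM in females. *Slc39a13* fell in males (-0.46, adjusted p = 0.000370), with a male response below the female one by a log2 difference of -0.38 (adjusted p = 0.0617). *Slc30a2*, another exporter, was lower in males at an adjusted p of 0.0996 (-0.47), and that call held in 2 of 8 removals of a single mouse. The call of the *Slc39a13* difference passed in 11 of 16 removals of a single mouse (adjusted p up to 0.135, without no-UVB female 3). It was -0.33 without no-UVB males 3 and 4 (adjusted p = 0.0986) and -0.43 without males 1 and 2 (adjusted p = 0.145). The male responses of *Mtf1*, *Slc30a1*, *Slc39a2*, *Slc39a6*, *Slc39a8* and *Slc39a13* passed in the same direction with either pair left out.

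**Figure D5:**
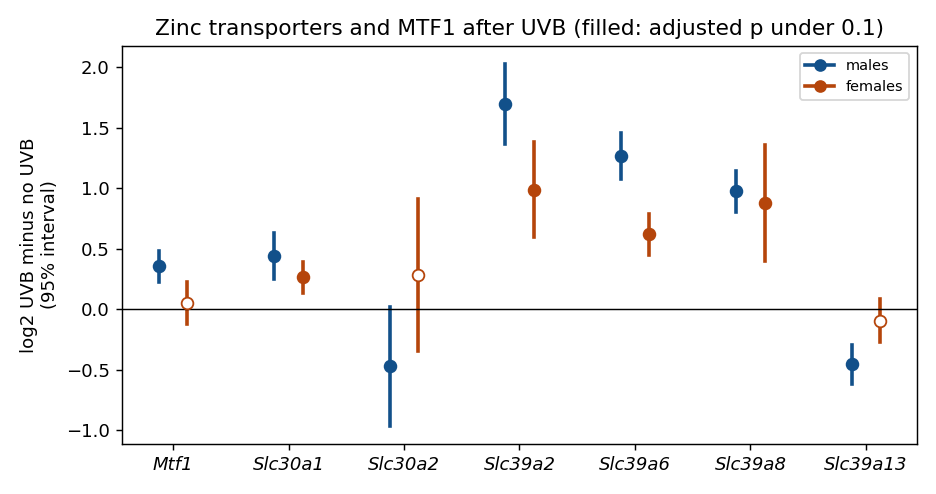
Log2 UVB response (y axis, UVB minus no UVB) with 95% intervals of *Mtf1* and the 6 named zinc transporters in males and females, filled where the adjusted p is under 0.1. *Slc30a1*, *Slc39a2*, *Slc39a6* and *Slc39a8* are filled and above 0 in both sexes, and *Slc39a13* is filled and below 0 in males (-0.46).

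Of 12 tested copper handling genes, 3 were higher and 4 lower in males, and 2 were higher and 0 lower in females. The backgrounds in males (29% and 30.5%) and females (12.8% and 10.6%) are close to these shares, except for the lack of lower genes in females. The copper chaperone *Atox1* rose by 0.57 in males and 0.48 in females (log2), and the copper pump *Atp7a* by 0.59 and 0.34. *Lox*, the copper-dependent enzyme that crosslinks collagen, fell in males by a log2 difference of -0.65 (261 to 333 CPM without UVB and 138 to 222 CPM with UVB, adjusted p = 0.00336), as did *Commd1* (-0.48, adjusted p = 0.00153) and ceruloplasmin, *Cp* (-0.41, adjusted p = 0.00538). In females *Lox* was at -0.24 (adjusted p = 0.363), *Cp* at 0.0085 (adjusted p = 0.976) and *Commd1* at -0.30 (adjusted p = 0.230), which passed without UVB female 2 (-0.48, adjusted p = 0.0327). Of 14 genes of the oxidant response driven by NRF2, 8 were higher and 0 lower in males (median 0.36), and 4 were higher and 0 lower in females (median 0.19), against the same backgrounds. The count was 7 to 9 higher in males and 2 to 4 higher in females over removals of a single mouse, with 2 without UVB female 3 or 4 or no-UVB female 3. *Slc7a11*, the cystine importer, was at 0.552 to 1.21 CPM in no-UVB males and 3.597 to 10.8 CPM in UVB males, and at 0.859 to 1.18 and 1.01 to 1.80 CPM in females. It rose by 3.13 in males (adjusted p = 9.63e-05), and its response differed between the sexes by 2.84 (adjusted p = 0.00739), by 3.25 without no-UVB males 3 and 4 (adjusted p = 0.00781) and by 2.51 without males 1 and 2 (adjusted p = 0.0608). *Srxn1*, which restores oxidised peroxiredoxins, rose by 1.08 in males and 0.79 in females.

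Of 16 tested genes of IL-6 and STAT3 signalling in each sex, 5 were higher and 6 lower in males, and 2 were higher and 3 lower in females. These shares are near the backgrounds of 29% and 30.5% in males and 12.8% and 10.6% in females. With no-UVB males 3 and 4 left out 8 were higher and 6 lower in males, and with males 1 and 2 left out 5 and 3. Without UVB male 1, 3 were lower. In the difference of responses 3 of 17 (*Jak2*, *Osmr* and *Stat3*) were higher and 0 lower, beside a background of 2.75% higher and 4.25% lower, and 1 was higher in 9 of 16 removals of a single mouse, among them no-UVB male 2 or 4 and UVB male 1 or 3. *Stat3* was at 176 to 191 CPM in no-UVB males and 239 to 264 CPM in UVB males, a rise of 0.48, and its response differed between the sexes by 0.42 (adjusted p = 0.0228), by 0.39 without no-UVB males 3 and 4 (adjusted p = 0.0457) and by 0.45 without males 1 and 2 (adjusted p = 0.0921). The feedback inhibitor *Socs3* was lower in both, by log2 differences of -0.79 in males and -0.48 in females, and the male call passed in 5 of 8 removals of a single mouse (adjusted p up to 0.116, without UVB male 1). It was -1.18 without no-UVB males 3 and 4 (adjusted p = 6.68e-05) and -0.21 without males 1 and 2 (adjusted p = 0.238). Of the genes flanking the cluster, *Bbs2*, of the cilium complex named the BBSome, fell in males (-0.53, adjusted p = 0.00235, and -0.54 and -0.50 without males 3 and 4 or 1 and 2) and was at -0.17 in females (adjusted p = 0.284). *Nup93*, of the nuclear pore, was at a log2 difference of -0.15 in females (adjusted p = 0.289) and close to 0 in males (adjusted p = 0.992).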

How the data were processed

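RNA of whole dorsal skin from 16 mice was sequenced by the authors, aligned to GRCm39 with STAR and deposited as raw counts per gene, 1 file a mouse, with columns for reads on either strand and on each strand. The annotation release is not given in the sources used here. The strand-specific column holding most reads was used, and the opposite one held 3.63% to 4.23% of the gene reads of both strand-specific columns together. Names and positions were taken from GENCODE M39 (54749 of 55359 identifiers matched). The rows of unassigned reads were left out of library sizes (reads on genes were 70.1% to 79.2% of all).

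Counts were fitted with edgeR 4.0.16 (R 4.3.3; TMM scaling, filterByExpr, robust quasi-likelihood F test), in the 8 mice of each sex for the UVB response and in all 16 for the difference of responses and of sexes. Genes passed at a Benjamini-Hochberg adjusted p under 0.1. The study's rule also asked for a shrunken log fold change over 1, which was not applied to the calls given here. The mice are separate samples by their labels, and no 2 libraries of a group agreed within sampling noise. CPM used TMM-scaled library sizes, and intervals are 95%. Counting intervals would cover counting error only. In simulated counts, 200 of 200 genes changed by a log2 fold of 2 were recovered in each of the male, female and difference fits, with 24, 19 and 19 false calls among 16535, 16883 and 17406 genes. The simulation gave every gene the same variation between mice and changed only well counted genes. It therefore does not measure the power for smaller differences, for the spread of *Mt1* and *Mt2* in no-UVB males or for the few reads of *Mt3*.

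Members and gene lists were chosen with earlier results of these data known. Named were all members, *Mtf1*, *Slc30a1* and *Nr3c1*, per list up to 5 passing genes of the largest difference with at least 1 CPM, genes starting within 100 kb of the cluster, and the 3 genes most like each member. The start codon windows, the comparison of coding sequences and the removal of pairs of no-UVB males were chosen after the data were seen. Alternatives were DESeq2 1.42.0, other scalings, filters and fits, counts without strand, a replicate block and leaving out each mouse. Python 3.11.15, pandas 2.3.3, scipy 1.17.1 and matplotlib 3.10.9 were used for the rest.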

Additional observations from a re-analysis of the deposited data

Results flagged for a closer look

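Of 20 groups of 4 mice tested for a single mouse far from its group (Dixon's 95% value, which chance exceeds in about 1 in 20 groups), 2 held one. No-UVB female 1 was at 78.6 CPM of *Mt2*, where the other 3 no-UVB females were at 45.1 to 48.8 CPM. UVB male 3 was at 0.264 CPM of *Mt3* (5 reads), where the other 3 UVB males were at 0.624 to 0.638 CPM.

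For 6 named genes the UVB response differed between the sexes in the test of the difference itself (edgeR, males minus females, log2). Over all 17406 genes 7% did, and these genes had been named for a UVB response in a sex. *Slc39a6* differed by 0.63, *Slc39a13* by -0.38, *Dusp1* by -1.98, *Tsc22d3* by -1.62, *Stat3* by 0.42 and *Slc7a11* by 2.84. With no-UVB males 1 and 2 left out *Slc39a6*, *Stat3* and *Slc7a11* passed. *Dusp1* (-0.89, adjusted p = 0.186), *Tsc22d3* (-0.84, adjusted p = 0.4375) and *Slc39a13* (-0.43, adjusted p = 0.145) then did not.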

How the results depend on the processing

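Precision is limited by 4 mice a group, by 5 to 32 reads of *Mt3* a library and by the split of the no-UVB males, and the cause of the moves below was not tested beyond what each removal shows.

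Values are log2 differences. *Mt1* in males passed in a fit of all 16 libraries (-0.61, adjusted p = 0.0823), with which 2 members passed in males. With at least 10 counts asked of every mouse *Mt3* was removed and 0 passed. With no-UVB males 3 and 4 left out (chosen after seeing the data), 3 members passed in males (*Mt1* -1.05, *Mt2* -1.03) and 3 in the difference of responses (*Mt1* -1.31, *Mt2* -1.04, *Mt3* -1.47). With no-UVB males 1 and 2 left out, values in males were 0.15 for *Mt1*, 0.37 for *Mt2* and -0.84 for *Mt3*, the *Mt2* difference of responses was 0.37, the sex differences without UVB were 0.44 for *Mt1* and 0.18 for *Mt2* with 0 members passing, and those of *Errfi1* and *Nfkbia* were -0.013 and -0.044. In both removals *Mt2* passed between the sexes with UVB (0.55, adjusted p = 0.0933 and 0.0986), as 1 member. The sex difference of *Mt2* without UVB did not pass with every gene of at least 1 count (1.04, adjusted p = 0.191) or without strand (0.85, adjusted p = 0.147), leaving 1 member. *Slc30a2* without strand was -0.072 in females and *Cp* with upper quartile scaling was -0.027. *Slc39a8* in females did not pass with every gene of at least 1 count (adjusted p = 0.109).

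The replicate numbers of the labels were tried as a block. Mice of the same number did not deviate together (r from -0.08 to 0.03 in males, with 0 of 4 numbers correlating best with their own, and -0.14 to 0.24 in females, with 2 of 4), so the numbers give no pairing. With the replicate block *Mt3* passed in the difference of responses (-1.23, adjusted p = 0.0762, 1 member), *Mt2* between the sexes without UVB did not (1.03, adjusted p = 0.101, leaving 1 member), and *Errfi1* (-1.42, adjusted p = 0.171) and *Tsc22d3* (-1.52, adjusted p = 0.107) in males did not. Also lost were the difference of responses of *Tsc22d3* (-1.575, adjusted p = 0.113) and the sex difference of *Errfi1* without UVB (1.36, adjusted p = 0.1675).

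Leaving out each mouse gave ranges in males of -0.78 to -0.30 for *Mt1*, -0.72 to -0.24 for *Mt2* and -0.22 to 0.14 for *Mt4*, with 1 to 3 members passing. In females they were -0.17 to 0.19 for *Mt2*, -0.20 to 0.30 for *Mt3*, -0.079 to 0.28 for *Mt4*, -0.070 to 0.11 for *Cp*, -0.19 to 0.19 for *Tsc22d3* and -0.18 to 0.16 for *Ddit4*. The difference of responses was -1.03 to -0.55 for *Mt1*, -1.48 to -0.92 for *Mt3* and -0.34 to 0.049 for *Mt4*, with 0 to 2 members passing. Between the sexes without UVB *Mt2* was at 0.78 to 1.27, with 1 to 2 members passing.

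Over all genes, the difference of responses was called for 1218 genes by edgeR, 1957 by DESeq2, 724 with every gene of at least 1 count, 178 without no-UVB males 1 and 2 and 1868 without males 3 and 4. Calls between the sexes without UVB were 2052, and 837 without males 1 and 2. Upper quartile scaling moved higher against lower calls from 2162 and 1787 to 1737 and 2157 in females and from 2222 and 2169 to 1659 and 2736 between the sexes with UVB, and DESeq2 size factors moved them from 478 and 740 to 687 and 641 in the difference of responses.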
